A study of Mus musculus with 3 samples.

Results

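The genes described here are the mouse cyclins, cyclin-dependent kinases (CDKs), CDK inhibitors of the Cip/Kip and Ink4 families, E2F and DP transcription factors and retinoblastoma-family genes measured on a set of 2-colour oligonucleotide arrays. They were chosen by gene symbol, without use of any measured value and with Cdkn1c left out, among the oligos to which the platform annotation gave exactly 1 symbol. This gave 49 genes on 52 oligos, of 19635 genes tested and 21819 library oligos in all. Every one of the 49 had a value on all 3 arrays, so none was lost to a filter on missing values.

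Each array set RNA of 13.5 dpc (days post coitum) kidney against RNA of 10.5 dpc metanephric mesenchyme, from which, once the ureteric bud enters it, the nephrons are made. Both tissues were microdissected from normal CD1 embryos, with the sexes pooled, and their RNA was amplified before labelling; the labels name no mutation and no treatment in either tissue. The value of a gene is the log2 ratio of the 2 channels as deposited, where 1 unit is a doubling. The sources used here do not say which tissue is the numerator, so results are given as the positive or negative side of the deposited ratio, and neither side is read as higher in the kidney. These are ratios between whole tissues, in which fewer cells of a type and less RNA per cell cannot be told apart.

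Cyclins are regulatory subunits that switch on CDKs at set points of the cell cycle. Cyclin D with Cdk4 or Cdk6, and then cyclin E with Cdk2, phosphorylate the retinoblastoma proteins, which releases E2F/DP factors to transcribe genes for S phase. Cyclins A and B with Cdk1 drive the later steps into mitosis, and CDK inhibitors hold the kinases back. Other cyclins and CDKs act mainly on RNA polymerase II and are part of the transcription machinery. In the developing kidney, nephron progenitors, stromal progenitors and ureteric tips divide rapidly, while differentiating podocytes leave the cell cycle.

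As a family these genes stood close to the rest of the array. Of the 49, 0 passed limma's test at an adjusted p of 0.05 (Benjamini-Hochberg over all genes; lowest adjusted p = 0.149), where 1 of 19635 genes did, or 0.00509%. At an unadjusted limma p under 0.05 there were 9, or 18.4% of the 49, beside 16.8% of all genes tested, a share near the background. They were Ccnf, Cdkn1a, Ccna2, Ccnh and Ccnc on the negative side (5 of 49, where the background is 7.83%) and Rbl2, Cdk13, Ccnl1 and E2f4 on the positive side (4 of 49, where it is 8.99%). Without array 1 the count was 3 (background 8.55%), and without array 2 it was 4 (background 10.6%). Only Ccnf and Rbl2, 2 of the 49, had a mean of 1 or more in size, beside 5.33% of all genes. The median of the 49 means was 0.013 and that of all genes tested 0.0020, and the median size of a mean, sign aside, was 0.21 beside 0.25.

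The 3 arrays shared a side for 25 of the 49, or 51.0%, beside 41.3% of all genes. All 3 were negative for 16, or 32.7%, beside 19.9% of all genes, and all 3 were positive for 9, or 18.4%, beside 21.5%. Whether these shares differ was not tested. The remaining 24 had arrays on both sides of 0, and for these the array values are given in place of a mean. In 26 of the 49 the SD over arrays exceeded the size of the mean.

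**Figure D1:**
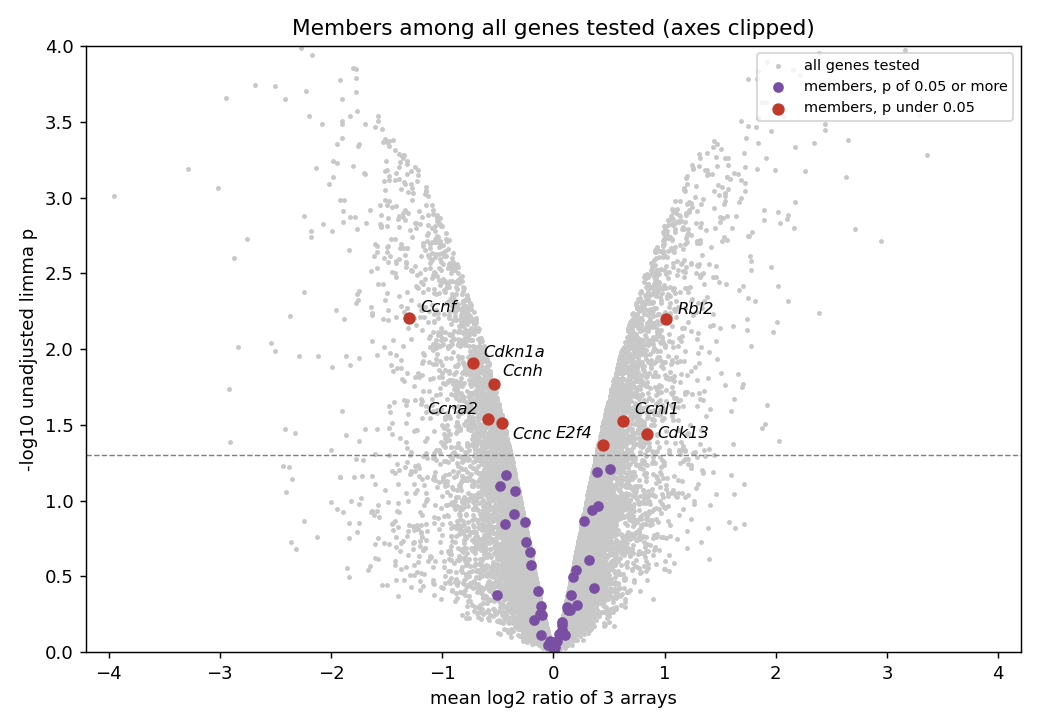
Mean log2 ratio of the 3 arrays (x axis) against -log10 of limma's unadjusted p-value (y axis) for all genes tested (grey) and for the 49 cell cycle genes (purple, or red and named above the dashed line, which marks the unadjusted threshold of 0.05); a few genes outside the family lie beyond the axes. The 49 sit within the cloud of all genes, with Ccnf and Rbl2 farthest from 0 on either side.

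The deposited ratios of arrays 1 and 2 correlated at r = 0.46 across all genes, while array 3 correlated with them at 0.17 and 0.16. Most marker genes of the kidney and of other tissues lay on 1 side by list, though 0 of them passed the adjusted limma test. Of 7 kidney markers 7 were positive on all arrays, beside 21.5% of all genes. Their mean log2 ratios ran from 0.68 for Gdnf to 3.31 for Cdh16 (median 1.42). All marker lists were chosen with earlier results of these data known, so their shared sides are given as description. Over all genes 19.9% were negative on all arrays. Negative on all arrays were 7 of 9 measured red-cell genes (median of the list -1.20, lowest -3.95 for Hbb-bh1; Hba-a1 and Hbb-y had arrays on both sides), 8 of 8 somite and muscle genes (median -0.82), 4 of 5 gut and liver genes (median -1.14) and 3 of 4 neural genes (median -0.61). The gut and liver exception, Alb, lay opposite to its list, positive on all arrays (mean 0.875). The neural exception, Sox10, had arrays on both sides. The part of these tissues in the ratios of the cell cycle genes was not tested.

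Among the cyclins and kinases of G1 and the start of S phase, 0 of 8 reached an unadjusted limma p of 0.05. Of all genes 16.8% did. The median of the 8 was 0.071, and 5 of them had arrays on both sides. Cdk2, the kinase partner of cyclins E and A, was the one member positive on all arrays, at 0.44, 0.56 and 0.18 on arrays 1, 2 and 3 (mean 0.39 ± 0.19, SD, n = 3; limma adjusted p = 0.329). Cdk6, a partner of D cyclins, lay on the other side at -0.58, -0.11 and -0.59 (mean -0.43 ± 0.27; limma adjusted p = 0.334). Its close relative Cdk4 stood at 0.037, -0.042 and 0.045, nearest to 0 of all the kinases and with the smallest spread of this group.

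The D cyclins, which link growth signals to the cycle, lay on both sides. Ccnd1, a Wnt- and growth factor-responsive cyclin, had 0.35, -0.051 and 0.31. Ccnd3 had -0.034, -0.0087 and -0.30 and was negative on all arrays (mean -0.11 ± 0.16). Ccnd2 was read by 2 oligos that disagreed: one had 0.54, 0.83 and 0.016 and the other 0.11, -0.22 and -0.50. Their average, 0.32, 0.31 and -0.24, therefore stands for neither oligo. Of the E cyclins, which activate Cdk2 at the G1/S boundary, Ccne1 had -0.088, 0.12 and -0.35. Ccne2 had -0.053 and -0.24 on arrays 1 and 2 and 1.40 on array 3, far above its other arrays.

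**Figure D2:**
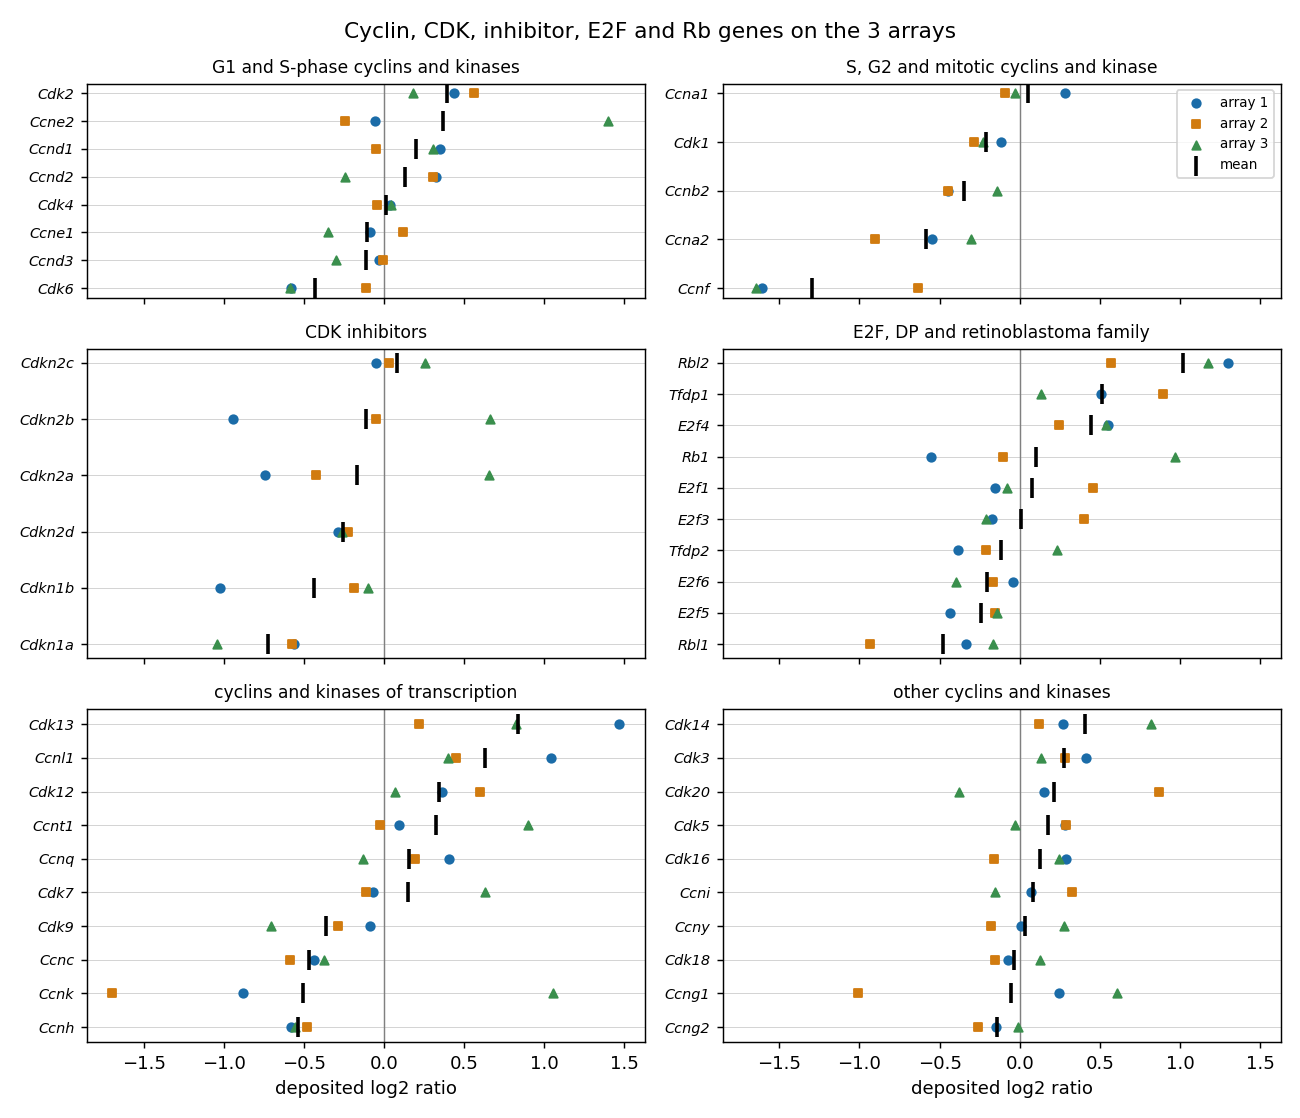
Deposited log2 ratio (x axis) of each of the 49 genes on array 1 (blue circle), array 2 (orange square) and array 3 (green triangle), with the mean as a black bar, in 6 panels by role. In the S, G2 and mitotic panel 4 of 5 genes have every array below 0, while in the G1 panel most genes straddle 0.

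The cyclins of S phase, G2 and mitosis were the one role in which nearly all genes held the same side. Of 5 measured, 4 were negative on all arrays, beside 19.9% of all genes, and the median was -0.35. Whether this share differs was not tested. Ccnb1 and Ccnb3 were not among the genes tested. Ccnf, an F-box cyclin that directs protein destruction in G2, had -1.61, -0.64 and -1.65, the lowest mean of the 49 genes. Its mean was -1.30 ± 0.57 (SD, n = 3), a 2.46-fold difference, with a limma adjusted p of 0.149. All arrays were well below 0, with array 2 nearest to it.

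Ccna2, the cyclin A of dividing somatic cells, had -0.55, -0.90 and -0.31 (mean -0.59 ± 0.30; limma adjusted p = 0.245). Ccnb2, a B-type mitotic cyclin, had -0.45, -0.45 and -0.14 (mean -0.35 ± 0.18; limma adjusted p = 0.367). Cdk1, the mitotic kinase that both bind, had -0.12, -0.28 and -0.23 (mean -0.21 ± 0.086; limma adjusted p = 0.531). The kinase thus lay on the same side as its cyclins but nearer 0. Ccna1, the cyclin A of germ cells, had 0.28, -0.091 and -0.029 and held no side.

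The promoters of Ccnb2, Ccnf and Cdk1 are shown because these genes held the same side on every array and share promoter letters. They were picked by both, so the match of side and letters is not a result. No other gene negative on all arrays with a promoter window, such as Ccnc, Cdkn1a or Cdk6, held the CHR letters described below. Ccna2, also negative on every array, had no promoter window, so its letters were not searched. Genes of G2 and mitosis are known to be controlled through CCAAT boxes and a cell cycle homology region (CHR). The windows run from 250 bases before to 50 after the start in RefSeq, build GRCm38.p6, written 5′ to 3′ along the gene. Capitals mark CCAAT, the CHR letters TTTGAA and the E2F letters TTTCGCGC, TTTGGCGC or TTTCCCGC, each searched on both strands; no capitals of different motifs overlap.
Ccnb2, chr9:70421505-70421804, minus strand: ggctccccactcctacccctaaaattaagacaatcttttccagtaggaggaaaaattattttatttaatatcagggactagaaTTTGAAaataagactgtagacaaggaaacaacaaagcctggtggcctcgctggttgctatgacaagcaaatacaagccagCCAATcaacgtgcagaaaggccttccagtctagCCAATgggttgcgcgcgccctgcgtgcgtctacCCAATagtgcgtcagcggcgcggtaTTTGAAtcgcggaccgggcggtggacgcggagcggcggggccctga
Ccnf, chr17:24251360-24251659, minus strand: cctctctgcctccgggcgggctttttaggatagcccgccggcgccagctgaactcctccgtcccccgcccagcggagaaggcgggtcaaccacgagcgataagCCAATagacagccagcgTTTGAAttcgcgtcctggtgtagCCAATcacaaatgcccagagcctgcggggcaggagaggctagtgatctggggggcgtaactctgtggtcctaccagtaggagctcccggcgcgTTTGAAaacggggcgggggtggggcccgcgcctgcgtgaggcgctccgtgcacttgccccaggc
Cdk1, chr10:69352863-69353162, minus strand: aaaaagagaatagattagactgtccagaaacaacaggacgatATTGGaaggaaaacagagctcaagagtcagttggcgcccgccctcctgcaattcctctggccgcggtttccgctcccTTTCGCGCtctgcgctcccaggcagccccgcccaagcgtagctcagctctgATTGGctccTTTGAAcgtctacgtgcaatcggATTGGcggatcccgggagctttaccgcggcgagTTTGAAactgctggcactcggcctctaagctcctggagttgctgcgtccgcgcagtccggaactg
Each of the 3 holds 2 CHR matches and 2 or 3 CCAAT matches. In Ccnf a CHR match begins 14 bases before the start, in Cdk1 15 bases before it, and in Ccnb2 at base 5 of the transcript. Cdk1 has in addition an E2F match 131 bases before the start.

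Promoter windows were found for 38 of the 49 genes, 46 windows in all, since some genes have more than 1 start. Both CHR and CCAAT letters were present in 5 of the 46, or 10.9%, beside 6.95% of 32851 promoter windows of all kinds of genes. The other 2 were Cdk16 and E2f3, whose arrays lay on both sides. CHR letters, with or without CCAAT, were in 17.4% of the 46, beside 17.9% of all windows, and CCAAT letters in 37.0%, beside 37.4%. E2F letters were in 7 windows of 6 genes, 15.2% of the 46 beside 1.84% of all. The 2 Tfdp1 windows among the 7 overlap and hold the same match. Those 6 genes followed no common side: Rbl1 and Cdk1 were negative on all arrays, Tfdp1 and Cdk2 positive, and Cdkn2a and E2f3 on both sides. The matches are letters in a window, and no binding was measured.

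Of the 6 CDK inhibitors, 3 were negative on all arrays, beside 19.9% of all genes, and the other 3 had arrays on both sides. Cdkn1a, the p53-induced inhibitor of Cdk2 and Cdk1, had -0.56, -0.57 and -1.04 (mean -0.73 ± 0.27, a 1.65-fold difference; limma adjusted p = 0.185). It was negative on every array, lowest on array 3. Cdkn1b, the inhibitor that holds quiescent cells out of the cycle, had -1.02 on array 1 but -0.19 and -0.097 on arrays 2 and 3 (mean -0.43 ± 0.51; limma adjusted p = 0.446). Without array 1 its mean was -0.14.

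Of the Ink4 inhibitors, which bind Cdk4 and Cdk6, Cdkn2d was the steadiest, at -0.29, -0.23 and -0.26 (mean -0.26 ± 0.030; limma adjusted p = 0.441). Cdkn2a and Cdkn2b are neighbours in the genome and brakes on proliferation in ageing cells. Cdkn2a had -0.74, -0.42 and 0.65, and Cdkn2b had -0.94, -0.048 and 0.66, so both were negative on array 1 and positive on array 3. The same held for Cdkn2c, Tfdp2, Rb1, Ccne2, Ccnk, Cdk7 and Cdk18, so it was not particular to these neighbours. Cdkn2a also encodes the p53 regulator Arf, and the sources used here do not say which of its transcripts the oligo reads. Cdkn2c stayed close to 0 on arrays 1 and 2, at -0.047 and 0.031, and had 0.25 on array 3.

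The 3 genes of the retinoblastoma family did not share a side. Rbl2, the pocket protein of resting and differentiating cells, had 1.30, 0.57 and 1.18, the highest mean of the 49 genes. Its mean was 1.02 ± 0.39 (SD, n = 3), a 2.02-fold difference (limma adjusted p = 0.149). Rbl1, the pocket protein most abundant in cycling cells, had -0.34, -0.93 and -0.17 (mean -0.48 ± 0.40; limma adjusted p = 0.353). Without array 2 its mean was -0.25. The lowest Rbl2 array lay above the highest Rbl1 array. Rb1, the retinoblastoma tumour suppressor, had -0.56, -0.10 and 0.97, with array 3 opposite to the others.

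The promoters of Rbl1 and Rbl2 are shown as relatives whose ratios lay on opposite sides and whose promoter letters differ. They were picked by both, and a link of side and letters was not tested. Build, window and capitals are as above.
Rbl1, chr2:157204485-157204784, minus strand: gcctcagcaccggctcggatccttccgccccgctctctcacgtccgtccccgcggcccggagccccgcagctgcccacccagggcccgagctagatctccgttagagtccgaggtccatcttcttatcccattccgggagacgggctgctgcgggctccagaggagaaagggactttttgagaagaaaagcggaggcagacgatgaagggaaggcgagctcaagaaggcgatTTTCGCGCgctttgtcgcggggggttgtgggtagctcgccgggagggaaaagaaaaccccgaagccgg
Rbl2, chr8:91069807-91070106, plus strand: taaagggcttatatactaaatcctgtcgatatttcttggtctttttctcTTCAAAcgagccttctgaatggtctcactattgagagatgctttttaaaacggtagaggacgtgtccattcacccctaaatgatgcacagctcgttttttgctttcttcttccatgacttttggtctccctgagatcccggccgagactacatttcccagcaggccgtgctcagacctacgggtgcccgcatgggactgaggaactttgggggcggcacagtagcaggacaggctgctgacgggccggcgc
Rbl1 holds an E2F match 18 bases before the start and neither other motif. Rbl2 holds a CHR match 201 bases before the start, and no CCAAT or E2F letters.

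Of the E2F and DP genes, E2f4 and Tfdp1 were positive on all arrays and E2f5 and E2f6 negative. E2f4, the repressor-type E2F that Rbl1 and Rbl2 bind, had 0.55, 0.24 and 0.54 (mean 0.44 ± 0.17, a 1.36-fold difference; limma adjusted p = 0.282). Tfdp1, the DP subunit that gives E2F its DNA affinity, stood at 0.51, 0.89 and 0.13 (mean 0.51 ± 0.38; limma adjusted p = 0.323). The other DP gene, Tfdp2, had -0.38, -0.21 and 0.23.

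The activator E2F genes E2f1 and E2f3 held no side. E2f1 had -0.16, 0.46 and -0.082, and E2f3 had -0.17, 0.40 and -0.21. Both were positive on array 2 alone, as was Ccne1. The repressor-type E2f5 had -0.44, -0.15 and -0.14 (mean -0.24 ± 0.17). E2f6, which represses without a retinoblastoma protein, had -0.040, -0.17 and -0.40 (mean -0.20 ± 0.18). Over these 10 factors and pocket proteins the median was 0.040, with 2 at an unadjusted p under 0.05, Rbl2 and E2f4, both positive (8.99% of all genes). E2f4 lost it without any 1 of the arrays.

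Of the 10 cyclins and kinases of transcription, 4 had an unadjusted p under 0.05, with 2 on each side, beside 16.8% of all genes. Without array 1 none of these 4 kept it, and without array 2 Cdk13 alone did. On the positive side, Cdk13, an RNA polymerase II kinase, had 1.47, 0.22 and 0.83 (mean 0.84 ± 0.63, a 1.79-fold difference; limma adjusted p = 0.266). Without array 1 its mean was 0.52. Ccnl1, a cyclin tied to splicing, had 1.04, 0.45 and 0.40 (mean 0.63 ± 0.36, a 1.55-fold difference; limma adjusted p = 0.246). Both were highest on array 1.

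Cdk12, the closest relative of Cdk13, was positive too, at 0.36, 0.60 and 0.070 (mean 0.35 ± 0.27; limma adjusted p = 0.408). Ccnk, the cyclin that activates Cdk12 and Cdk13, had -0.88, -1.69 and 1.05, the widest spread of the 49 genes (SD 1.41). Arrays 1 and 2 put it below nearly every other gene of the family and array 3 above nearly all, so it has no usable mean.

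On the negative side, Ccnh, the cyclin of the CDK-activating kinase and of the general factor TFIIH, had -0.58, -0.48 and -0.55 (mean -0.54 ± 0.052, a 1.45-fold difference; limma adjusted p = 0.205). The 3 arrays differed little. Its kinase Cdk7 had arrays on both sides, at -0.068, -0.11 and 0.63. Ccnc, the cyclin of the Mediator kinase module, had -0.43, -0.58 and -0.38 (mean -0.47 ± 0.11, a 1.38-fold difference; limma adjusted p = 0.248). It too was negative by a like amount on each array.

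Of the elongation kinase P-TEFb, the kinase subunit Cdk9 had -0.085, -0.29 and -0.70 (mean -0.36 ± 0.32; limma adjusted p = 0.420). Its cyclin Ccnt1 had 0.094, -0.026 and 0.90, with array 3 standing apart. Ccnq, the cyclin partner of Cdk10, had 0.41, 0.19 and -0.13.

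The remaining 10 cyclins and kinases gave 0 genes at an unadjusted limma p under 0.05, beside 16.8% of all genes. Their median was 0.10. Cdk14, a cyclin Y-dependent kinase of Wnt signalling, had 0.27, 0.12 and 0.82 as the average of 2 oligos (mean 0.41 ± 0.37). These 2 oligos agreed in side on every array, one with 0.28, 0.16 and 1.02 and the other with 0.26, 0.085 and 0.62. Ccny, its cyclin, was read by 2 oligos on opposite sides: -0.36, -0.50 and -0.40 for one, against 0.37, 0.15 and 0.95 for the other. Each Ccny oligo held its side on all arrays, so their average, between -0.18 and 0.28, describes neither.

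Cdk3 had 0.41, 0.28 and 0.13 (mean 0.28 ± 0.14); the RefSeq table lists it in the mouse as a transcribed pseudogene. The p53-responsive Ccng1 had 0.24, -1.01 and 0.61, with array 2 alone on the negative side. Its relative Ccng2, an inhibitory cyclin of arrested cells, had -0.15, -0.26 and -0.012 (mean -0.14 ± 0.13). The neuronal kinase Cdk5 had 0.28, 0.29 and -0.029, and Cdk20, a kinase of the primary cilium, had 0.15, 0.87 and -0.38. Ccni, Cdk16 and Cdk18 had arrays on both sides, all between -0.16 and 0.33.

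**Figure D3:**
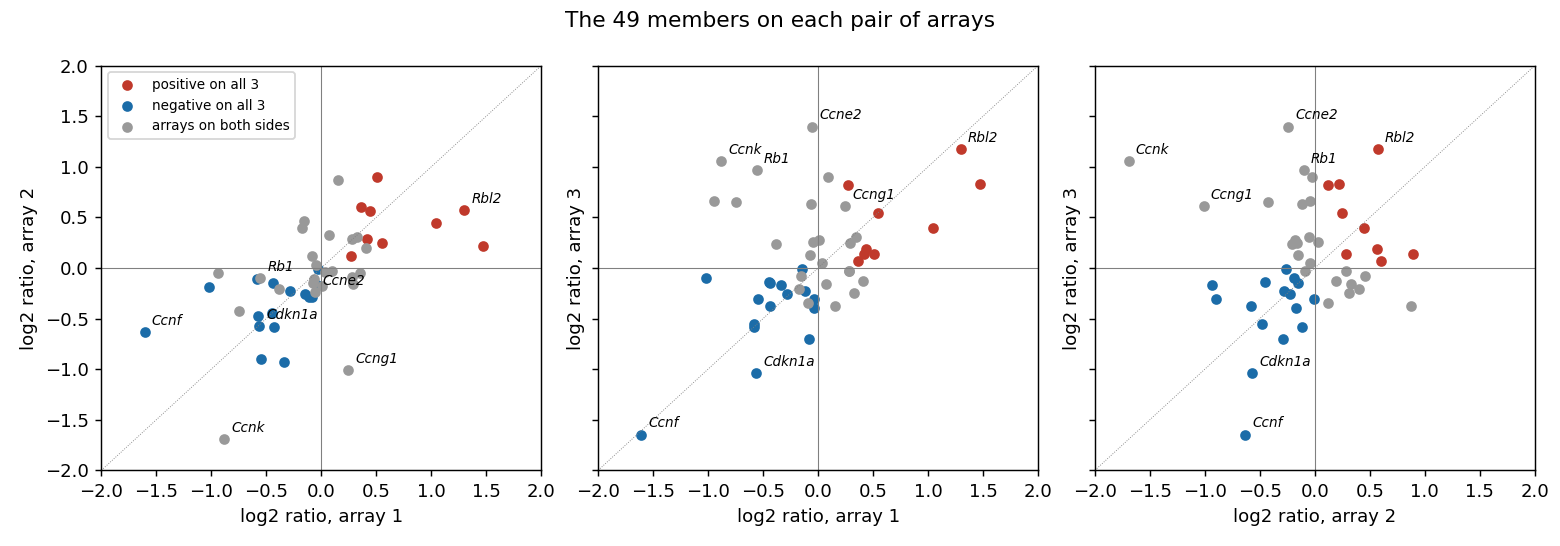
Log2 ratio of the 49 genes on arrays 1 and 2 (left), 1 and 3 (middle) and 2 and 3 (right), coloured by whether all 3 arrays were positive (red), negative (blue) or on both sides (grey); the dotted line is equality. Rbl2 and Ccnf keep their corner in each panel, while Ccnk, Rb1, Ccne2 and Ccng1 change sides with the array.

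Arrays 1 and 2 put 38 of the 49 genes on the same side, or 77.6%, beside 69.8% of all genes. Arrays 1 and 3 did so for 34, or 69.4%, beside 57.2%, and arrays 2 and 3 for 27, or 55.1%, beside 55.7%. Across the 49 genes the Pearson correlation was 0.60 for arrays 1 and 2, 0.41 for arrays 1 and 3 and 0.072 for arrays 2 and 3, given as a description of genes that share the arrays. The widest SDs after Ccnk were those of Ccne2 (0.90), Ccng1 (0.85), Cdkn2b (0.81), Rb1 (0.78) and Cdkn2a (0.73). In 4 of these 5 array 3 was the highest, with arrays 1 and 2 both below 0, and Ccng1 was set apart by array 2. The median SD of the 49 was 0.27, beside 0.32 for all genes.

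Other genes of the pathway gave a picture as mixed as the family itself. Of 31 listed regulators 27 were tested, with a median of -0.052, 0 past the adjusted test, and 4 at an unadjusted p under 0.05, beside 16.8% of all genes. On the positive side, Cks2, a small CDK-binding subunit, had 1.44, 1.12 and 0.78 (mean 1.11 ± 0.33; limma adjusted p = 0.124). Btg2, an anti-proliferative p53 target, had 1.19, 0.58 and 0.69 (mean 0.82 ± 0.32; limma adjusted p = 0.175). Cdc7, the kinase that fires replication origins, had 0.72, 0.72 and 0.69 (mean 0.71 ± 0.017; limma adjusted p = 0.147).

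The 1 such gene on the negative side was Mybl2, the B-Myb factor that drives G2 genes such as Ccnb2 and Cdk1, at -0.73, -0.73 and -0.30 (mean -0.59 ± 0.25; limma adjusted p = 0.226). Foxm1, another G2 transcription factor, was negative on all arrays, but at -4.82 on array 2 against -0.23 and -0.96 on arrays 1 and 3. Cdc20, the mitotic activator of cyclin B destruction, had -0.77, -1.30 and 1.02, the same array pattern as Ccnk. Mnat1, the third subunit of the CDK-activating kinase, had -0.13, -0.40 and -0.31, negative on all arrays like Ccnh. Cdk7 stood near 0 on arrays 1 and 2, at -0.068 and -0.11, and at 0.63 on array 3, so it held no side. Over the 27 regulators all arrays were positive for 7 (21.5% of all genes) and negative for 9 (19.9%). Positive on all arrays were also Myc, Skp2, Fbxw7 and Mycn, with means from 0.21 to 0.39. None of these had an unadjusted limma p under 0.05.

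**Figure D4:**
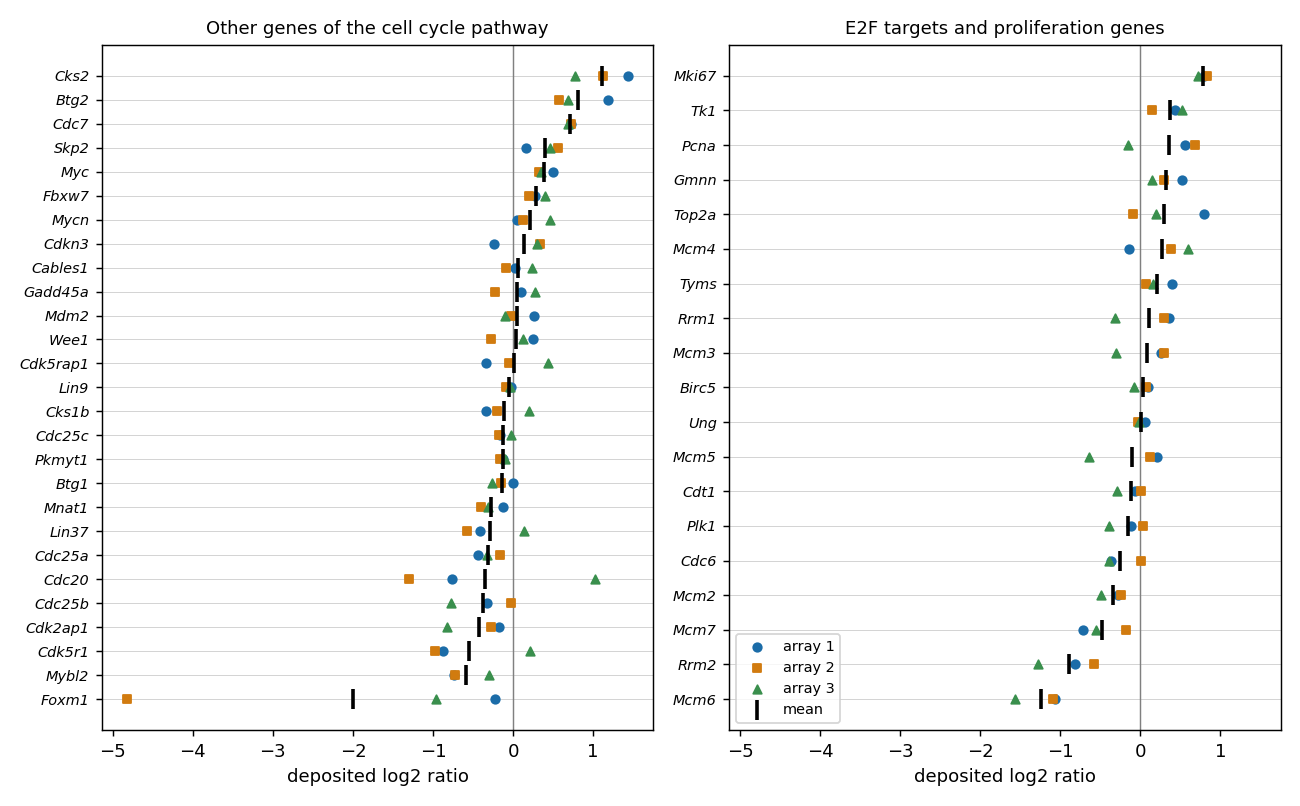
Deposited log2 ratio (x axis) on array 1 (blue circle), array 2 (orange square) and array 3 (green triangle), with the mean as a black bar, of 27 other cell cycle regulators (left) and 19 E2F targets and proliferation genes (right). Cks2 and Mki67 head the lists, Mcm6 and Rrm2 are negative on every array, and Foxm1 owes its low mean to array 2.

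Among 20 listed E2F targets and proliferation genes, 19 were tested, with a median of 0.032 and 0 past the adjusted test. At an unadjusted p under 0.05 there were 4, of which 1 was positive and 3 were negative, beside 16.8% of all genes. Mki67, the antigen Ki-67 of all cycling cells, had 0.79, 0.84 and 0.72 (mean 0.78 ± 0.062; limma adjusted p = 0.133). Mcm6, a subunit of the replicative helicase, had -1.07, -1.09 and -1.56 (mean -1.24 ± 0.28; limma adjusted p = 0.109). Rrm2, the S-phase subunit of ribonucleotide reductase, had -0.82, -0.58 and -1.28 (mean -0.89 ± 0.35; limma adjusted p = 0.167). The helicase subunit Mcm7 had -0.71, -0.17 and -0.55 (mean -0.48 ± 0.28; limma adjusted p = 0.296). Its partner Mcm2 was also negative on all arrays, at -0.28, -0.24 and -0.49 (mean -0.34 ± 0.13; limma adjusted p = 0.362). The partners Mcm3, Mcm4 and Mcm5 had arrays on both sides. Positive on all arrays were 4 of the 19 (21.5% of all genes), and negative 4 (19.9%). The positive ones besides Mki67 were Tk1, Gmnn and Tyms (means 0.37, 0.32 and 0.21). Proliferation genes thus lay on both sides of the deposited ratio, as did the cyclins and kinases.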

How the data were processed

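The values are log2 ratios of the 2 channels of 3 arrays, deposited by the authors; base 2 fits the values, whose minimum is -6.64, a ratio of 0.01. Per the labels, images were read with ImaGene, and the ratios had print-tip loess, a normalization between arrays in R, and a lowess over 20% of the data with control values under 10 set to 10. A dye swap is mentioned without saying which array it concerns, and no sign was turned here. Spot intensities and background were not used here, so dim or saturated spots could not be examined, and precision is limited by having 3 arrays. The labels name no batch.

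Of 22702 spots, 883 control spots were left out. Oligos with exactly 1 symbol in the platform annotation of 2007 were named (16656 of 21819; 15970 were found in the RefSeq gene table by Entrez identifier, which changed 0 symbols), and oligos of a symbol were averaged. Genes with a value on all 3 arrays were tested with limma 3.58.1 in R 4.3.3 (intercept only, eBayes, mean against 0, two-sided, Benjamini-Hochberg over 19635 genes). An exact sign-flip test on 3 arrays cannot go below 0.25. No label says that separate pools of tissue were used for each array, so p-values reflect array-to-array spread alone, possibly technical. The fit was tested on simulated data drawn under limma's own assumptions, with independent arrays of equal spread. That test could not show how the fit behaves where arrays are unequal or share tissue.

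Genes were given with each array's value where the unadjusted p was under 0.05 or the mean at least 1 in size. Others were given by role. Array values of further members and of some listed genes are given as description. The members were fixed by the symbol rule alone. That rule, the lists, the tests and the alternatives were chosen with earlier results of these data known. Promoters are from RefSeq, GRCm38.p6, matched by symbol.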

Additional observations from a re-analysis of the deposited data

How the results depend on the processing

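The fit was repeated under 11 alternatives: leaving out each array, testing each oligo on its own, admitting genes on 2 arrays, median centring, scaling to a common median absolute deviation, quantile normalization, array weights, leaving out genes at the lowest ratio, and a robust variance prior. In each of them 0 of the 49 genes passed the adjusted limma test. Their count at an unadjusted p under 0.05 ran from 3 to 11 with 1 array left out (8.55% to 19.9% of all genes) and was 13 with array weights (21.5% of all genes), 10 by oligo and 9 otherwise. Their median ran from -0.086 to 0.032 with 1 array left out, negative only without array 3, and was -0.023 with array weights, so its sign is not settled. Over all genes the count past the adjusted test was 0 with any 1 array left out, 0 with a common median absolute deviation and 0 without genes at the lowest ratio, which leaves out the 1 gene that passed; the cause of the other losses was not tested. Ccnf, Cdkn1a and Rbl2 kept an unadjusted limma p under 0.05 in all 10 alternatives run per gene, and Ccna2, Ccnh, Ccnc and Ccnl1 lost it without array 1 and without array 2. E2f4 lost it without any 1 array, and Cdk13 without array 1, without array 3 and with array weights. Of the 25 genes with all arrays on 1 side, 11 had a mean that leaving out 1 array moved by over 1.5 times: Cdkn1b, E2f5 and Cdk13 with array 1 left out, Rbl1, Tfdp1, Cdk12 and Ccng2 with array 2, and E2f6, Ccnd3, Cdk9 and Cdk14 with array 3. None of these 25, nor of the 8 pathway genes at an unadjusted p under 0.05, passed the adjusted limma test in any alternative (lowest adjusted p = 0.0774). The ratio of each array already sets both tissues against each other. No paired analysis beyond that was possible because the 3 arrays form 1 group.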
